A study of Mus musculus with 8 samples.

Results

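The 35 genes described here encode nuclear subunits of respiratory complex I, measured on 8 single-colour microarrays of small intestine from ApcMin/+ mice. The genes were chosen by name (the Ndufa, Ndufb, Ndufc, Ndufs and Ndufv series) and found on the arrays through the RefSeq accession of each probe, without use of their values. All 35 were found, by 41 probes, out of 32540 genes on the array. All 35 were well above background on all 8 arrays, so no member was lost to the filter that left 21303 genes for testing.

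The mice carried the Min allele of the Apc tumour suppressor gene on the C57BL/6J background in every group, controls included. There were 2 arrays in each of 4 groups. Control males and Control females received the unmodified semisynthetic AIN-93G diet. Western males and Western females received a version of it that was richer in fat and poorer in fibre, vitamin D, calcium and folate, in which milk supplied 66.4% of the fat and plant oils (rapeseed and sunflower) the remaining 33.6%. The labels give 18 months of feeding, a duration that was not checked, and no ages. Each array held RNA of 1 to 3 mice. The labels do not state that a group's arrays came from separate animals, and the p-values therefore reflect array-to-array spread that could be technical. The RNA came from whole tissue, where fewer cells of a type and less RNA per cell cannot be told apart.

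Complex I is the first and largest enzyme of the mitochondrial respiratory chain. It takes electrons from NADH through a peripheral arm that reaches into the matrix, passes them to ubiquinone, and uses the energy released to pump protons through a membrane arm. A small set of core subunits carries out catalysis, the accessory subunits stabilise and assemble the complex, and some core subunits of the membrane arm are encoded in mitochondrial DNA. Absorptive enterocytes, the main epithelial cells of the small intestine, depend on oxidative phosphorylation for transport and fat handling.

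One library went against its label. The library labelled Control female 1 carried Y-linked transcripts at male levels, with Eif2s3y at 1.90 in log2 relative to the array's 75th percentile, against 1.74 to 2.45 on the male arrays and -7.28 to -5.58 on the other female arrays. Its deposited file is also named for the Western-type diet rather than the control diet. It was kept in the group that its label gives, and each direction that uses Control females rests partly on it. Control female 2 stood apart in another way, with 75.6% of probes well above background against 55.1% to 61.9% on the other arrays. All 12 enterocyte markers were well above background on every array.

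Promoters are shown for members that the comparisons below name, because these transcripts varied together across arrays and because the nuclear respiratory factor NRF1, the ETS factor GABP and the factor YY1 are known regulators of respiratory chain genes. RefSeq promoter windows (GRCm38.p6, 250 bases before to 50 after the start) were matched for 32 of the 35 members. The NRF1 motif, searched as GCGCA, any base, then GCGC, was found on either strand in 7 of 32 members (21.9%) and in 4.60% of all 32851 windows. CCGGAAG, an ETS motif, was found in 4 members (12.5%) and 8.86% of windows, AANATGGCG, a YY1 motif, in 7 members (21.9%) and 2.38% of windows, and TATAAA in 4 members (12.5%) and 13.62% of windows. TCAAGGTCA, the motif of the oestrogen-related receptors, was found in 0 members and 0.42% of windows. The stretches below read 5′ to 3′ along the gene, with the motif in capitals. A match describes the letters and does not show binding.
Ndufa11, NRF1 motif, chr17:56717687-56717726, plus strand: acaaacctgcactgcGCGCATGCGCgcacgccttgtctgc
Ndufb4, NRF1 motif, chr16:37654423-37654462, minus strand: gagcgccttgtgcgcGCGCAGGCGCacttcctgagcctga
Ndufs5, NRF1 motif, chr4:123718260-123718299, minus strand: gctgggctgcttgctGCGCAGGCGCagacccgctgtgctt
Ndufb7, ETS motif, chr8:83566727-83566755, plus strand: gcctagatgacCCGGAAGacactgaaggg
Ndufs4, YY1 motif, chr13:114388045-114388069, minus strand: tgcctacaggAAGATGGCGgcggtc
The motifs of Ndufa11, Ndufb4 and Ndufs5 lie before the start site, at -60, -79 and -98, and Ndufb4 held 2 further NRF1 matches. The YY1 motif of Ndufs4 lies after the start, from base 35. The promoters of Ndufa4, Ndufb8, Ndufa10, Ndufc2 and Ndufv2, also named below, held none of the 5 motifs.

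The complex I transcripts were high or low together on most arrays. With each gene set against its own mean over the 8 arrays, 0 of 35 members lay above that mean on Control male 1, 5 on Control male 2, 4 on Western male 1 and 1 on Western female 2. On the other arrays 32 lay above it on the library labelled Control female 1, 35 on Control female 2, 33 on Western male 2 and 33 on Western female 1. Over all 21303 genes the share above their own mean ranged from 40.6% (Control male 2) to 63.6% (Control female 2). The median deviation of the members ranged from -0.20 on Control male 1 to 0.23 on the library labelled Control female 1, which is a 1.35-fold span. Both Control male arrays were low and both Control female arrays high, while each Western group held 1 low and 1 high array.

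**Figure D1:**
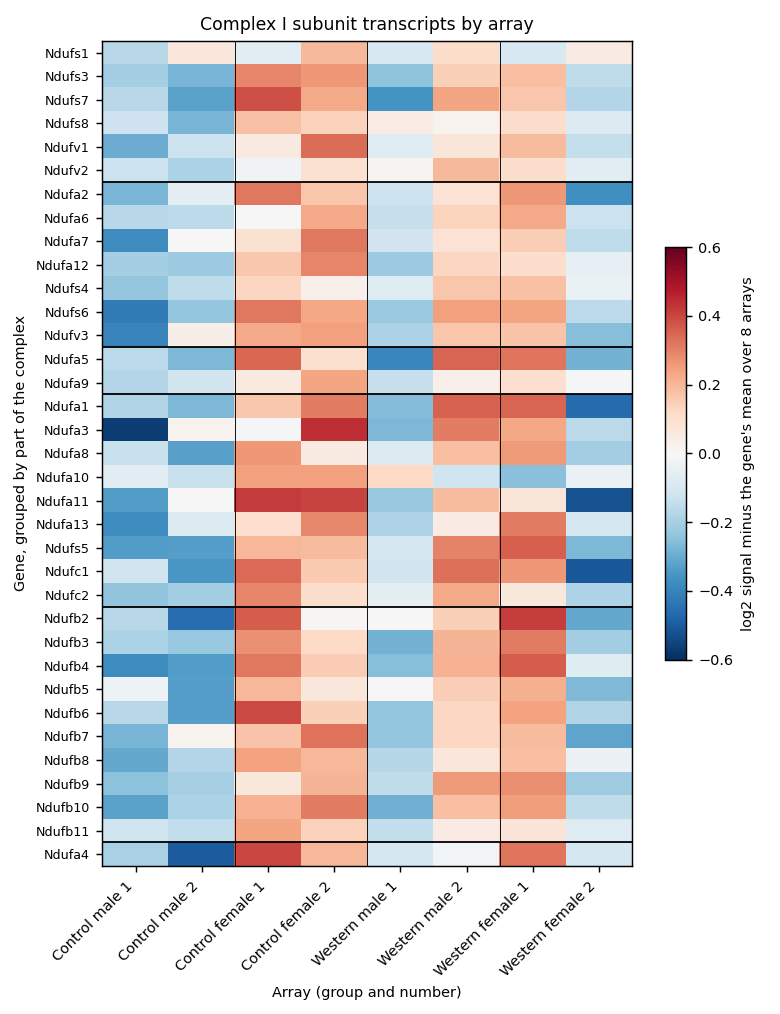
Each row is 1 of the 35 complex I genes, grouped by part of the complex from core subunits at the top to Ndufa4 at the bottom, each column is 1 array, and colour is the log2 signal minus the gene's mean over the 8 arrays. Most genes of a column share a colour: Control male 1 has 0 genes above their own mean and Control female 2 has 35.

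The spread of single members was modest. The standard deviation over the 8 arrays had a median of 0.24 over members, against 0.33 over all genes tested. The latter include genes well above background on as few as 2 arrays, and the spread of genes of the members' level was not compared. Among members the standard deviation was lowest for Ndufs1, the largest iron-sulfur subunit of the NADH-oxidising part, at 0.12. It was highest for Ndufa11, a membrane arm subunit, at 0.34. Ndufs1 measured 3.79 and 4.03 on Control males, 3.90 and 4.15 on Control females, 3.87 and 4.07 on Western males and 3.87 and 4.01 on Western females. The groups overlapped throughout. Ndufa3, an accessory subunit of the membrane arm, had the widest range of all members, from 5.01 on Control male 1 to 6.02 on Control female 2.

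The other respiratory complexes had medians above 0 on the same 4 arrays as the members and below 0 on the same 4. The 24 measured genes of complexes II to IV had median deviations of -0.22 and -0.10 on Control males, 0.20 and 0.15 on Control females, -0.10 and 0.16 on Western males and 0.20 and -0.27 on Western females. The 15 measured ATP synthase genes had -0.23 and -0.13, 0.21 and 0.13, -0.14 and 0.14, and 0.19 and -0.17 on the same arrays. The 16 assembly factors of complex I, which build the complex without staying in it, had medians of the members' sign on 6 of the 8 arrays, the exceptions being 0.05 on Control male 1 and 0.11 on Western female 2, where the subunits were at -0.20 and -0.16. The 17 genes of mitochondrial import and the matrix had the members' sign on 7 arrays, the exception being 0.06 on Western female 2. The 14 regulators of mitochondrial biogenesis ranged from -0.12 (Control male 2) to 0.15 (Western female 1), with 0.05 on Control male 1. Whether the lists differ from each other was not tested.

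**Figure D2:**
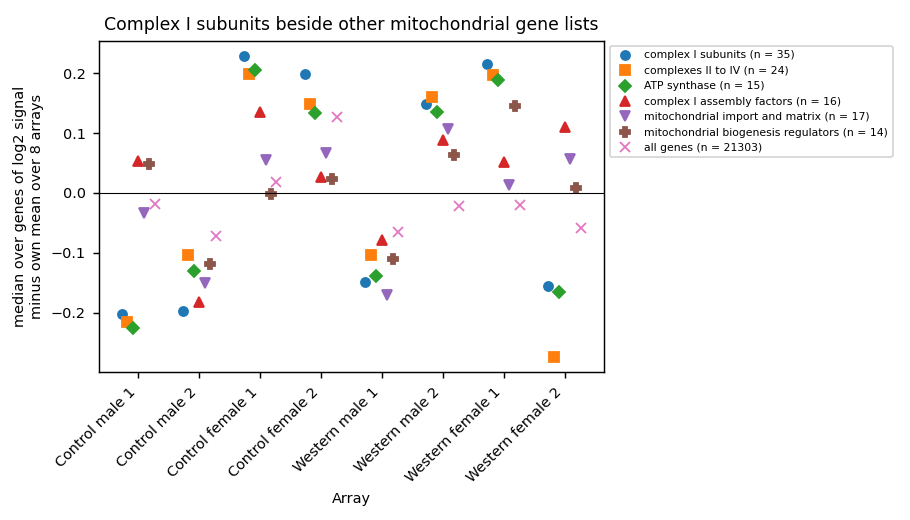
Points are the median over the genes of a list of the log2 signal minus each gene's own mean over the 8 arrays, with arrays on the horizontal axis; mitochondrial import and matrix genes and all genes are also plotted. The complex I subunits (-0.20 to 0.23), complexes II to IV and ATP synthase lie together on each array, and the assembly factors and biogenesis regulators lie apart from them on Control male 1 and Western female 2.

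Measures of the tissue and of the arrays moved with this pattern in part. The 8 leukocyte markers, summed in units of the array's 75th percentile, had 64.5 and 66.05 on Control males, 30.1 and 23.6 on Control females, 54.5 and 28.4 on Western males and 34.4 and 60.5 on Western females. These sums were above 50 on each array where the members' median was below 0 and under 35 on each where it was above 0. Jchain, at 4.19 to 5.86 in log2, made up most of each sum. Per gene the leukocyte markers did not separate the arrays in this way. On Western male 1 and Western female 1 alike 4 of 8 lay above their own mean, with median deviations of 0.06 and 0.07. The 12 enterocyte markers summed to 2118 and 2486 on Control males, 2564 and 2895 on Control females, 1957 and 2507 on Western males and 3081 and 1895 on Western females. The enterocyte sums were at most 2486 where the members' median was below 0 and at least 2507 where it was above 0. Per gene the enterocyte median deviations were -0.16 and 0.18 on Control males and 0.07 and 0.37 on Control females. They were -0.30 and 0.03 on Western males and 0.23 and -0.40 on Western females. Their sign was that of the members on every array except Control male 2. There 9 of 12 enterocyte markers and 5 of 35 members lay above their own mean. The 5 measured red blood cell markers summed to 16.4 to 16.9 on Control females and to 52.2 to 149.3 on the other arrays. Control male 1 carried the most smooth muscle RNA, with 49.8 over 9 markers against 6.50 on Control male 2. The sums were 11.8 to 17.7 on Control females, 9.12 to 11.3 on Western males and 10.66 to 20.9 on Western females. Outside Control male 1 most of each sum was Tagln, and the order per gene could differ. Western female 1 had the higher sum of its group but a median deviation of -0.73, against 0.04 on Western female 2. The 6 measured fibroblast markers summed to 12.2 on Control male 1, 1.37 on Control male 2 and 1.09 to 3.21 on the arrays of the other groups. Of the 4 measured fat cell markers, Cfd, Retn and Adipoq were each highest on Western female 2, at 3.28, -0.41 and 0.94. On the other arrays they had -5.07 to -2.59, -7.64 to -4.52 and -7.61 to -2.53. Retn was well above background on only 2 male and 1 female arrays, and Adipoq on 1 male and 2 female arrays. Their values elsewhere are bounds. Cidec had another order, highest on Western female 1 (3.99) and 2.54 on Western female 2. The part of these cell types in the complex I result was not tested.

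Brightness was compared in the same way. For this, 929 genes were taken whose mean level lay between the quartiles of the members' levels (4.64 to 6.02). Their median deviations were -0.15 and 0.02 on Control males and 0.09 and 0.05 on Control females. They were -0.08 and 0.10 on Western males and 0.07 and -0.11 on Western females. The sign was that of the members on every array except Control male 2, where the members had -0.20. After quantile normalization the members' medians ranged from -0.22 (Control male 2) to 0.17 (Control female 2). They shrank from -0.20 to -0.06 on Control male 1 and from -0.15 to -0.06 on Western male 1. They went from -0.16 to -0.08 on Western female 2 and from 0.15 to 0.05 on Western male 2. On these arrays, in the same order, 4, 8, 7 and 25 members lay above their own mean. The medians of the 929 genes ranged from -0.03 to 0.02. Quantile normalization gives all arrays the same distribution, which holds such medians small.

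The first comparison of the study set the Western-type against the control diet. Averaged over the sexes, 18 of 35 members were higher and 17 lower on the Western diet, where 39.8% of all genes were higher and 60.2% lower. The median log2 difference of the members was 0.011 (range -0.24 to 0.14), against -0.06 over all genes. This split depended on single arrays: 30 members were higher without Western male 1 and 31 without Western female 2, but 9 without Western male 2 and 4 without Western female 1. By limma, 0 of 35 members passed an adjusted p of 0.05, and 0 had an unadjusted p under 0.05. Over all genes 0 of 21303 passed (0%), and 927 had an unadjusted p under 0.05 (0.629% higher and 3.72% lower). Quantile normalization moved the median of all genes from -0.06 to 0.05 and the share that was higher from 39.8% to 58.6%, with 20 members higher and 15 lower. In 0 members did the 4 arrays of one diet lie wholly above or below the 4 of the other, where 0.826% of all genes were wholly higher and 2.35% wholly lower.

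Among the core subunits, which together hold the flavin and iron-sulfur clusters of the peripheral arm, the 6 members had a median difference of 0.003. Ndufv2, an iron-sulfur subunit next to the NADH site, measured 5.07 and 5.01 on Control males, 5.18 and 5.29 on Control females, 5.21 and 5.39 on Western males and 5.30 and 5.13 on Western females. The Western males lay above the Control males, and the female groups overlapped. The diet difference was 0.12 ± 0.14 (SE; adjusted p = 0.994 by limma, n = 4 arrays per diet). Ndufv1, which binds the flavin, and the subunits Ndufs1, Ndufs3, Ndufs7 and Ndufs8 lay between -0.06 and 0.04.

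The 9 accessory subunits of the matrix arm, 7 on the NADH-binding part and 2 on the ubiquinone-binding part, ranged from -0.07 to 0.11. Ndufs4, a late-assembling subunit whose loss causes a mitochondrial encephalopathy in mice and people, measured 4.49 and 4.57 on Control males, 4.85 and 4.76 on Control females, 4.65 and 4.89 on Western males and 4.90 and 4.68 on Western females. Control males were the lowest group and the other groups overlapped, with a diet difference of 0.11 ± 0.14 (SE; adjusted p = 0.998 by limma).

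The 9 accessory subunits of the membrane arm next to the matrix arm had both ends of the range. Ndufs5, an intermembrane space subunit, measured 4.52 on both Control males, 5.06 and 5.05 on Control females, 4.75 and 5.15 on Western males and 5.22 and 4.59 on Western females, with a diet difference of 0.14 ± 0.20 (SE; adjusted p = 0.999 by limma). Ndufa11 measured 1.13 and 1.46 on Control males, 1.88 and 1.87 on Control females, 1.23 and 1.65 on Western males and 1.54 and 0.94 on Western females. It was lower on the Western diet by 1.18-fold (log2 -0.24 ± 0.21 SE, adjusted p = 0.994 by limma), and the difference came with both Control female arrays being the highest of the 8. Ndufa10, another subunit of this part, measured 2.26 and 2.19 on Control males, 2.57 and 2.57 on Control females, 2.45 and 2.21 on Western males and 2.08 and 2.29 on Western females, with a diet difference of -0.15 ± 0.14 (SE; adjusted p = 0.994 by limma). Unlike most members it was low on Western female 1.

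The 10 Ndufb subunits of the distal membrane arm ranged from -0.12 to 0.13. Ndufb7, which faces the intermembrane space, measured 5.61 and 5.91 on Control males, 6.06 and 6.21 on Control females, 5.66 and 6.01 on Western males and 6.08 and 5.57 on Western females, with a diet difference of -0.12 ± 0.19 (SE; adjusted p = 0.999 by limma). The values of the diets overlapped throughout. Ndufa4, first described with complex I and now counted with complex IV, differed by 0.05 ± 0.17 (SE).

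**Figure D3:**
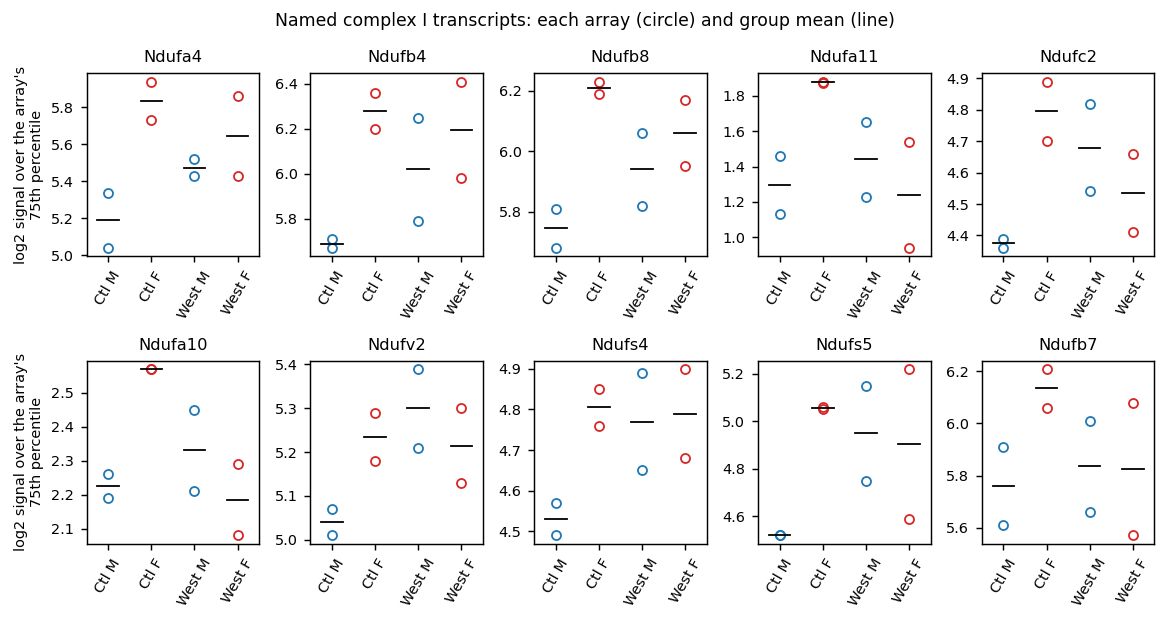
Circles are single arrays and lines group means for 10 named complex I genes, as log2 signal relative to the array's 75th percentile, by group (Ctl control diet, West Western diet, M male in blue, F female in red). The vertical axes do not start at 0 and differ between panels; Control males are the lowest group for Ndufa4, Ndufb4, Ndufb8, Ndufc2, Ndufv2, Ndufs4 and Ndufs5.

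In 6 genes a second probe was measured. Ndufv3, which encodes an NADH-binding part subunit known to exist in a short and a long form, had a bright and a dim probe with diet differences of unlike size. The bright probe gave a diet difference of -0.05 ± 0.19 (SE). The dim one measured -0.07 and 0.31 on Control males, 0.18 and 0.11 on Control females, -0.27 and -0.11 on Western males and -0.33 and -0.34 on Western females. All 4 Western arrays lay below all 4 control arrays on this probe, by 1.31-fold (log2 -0.39 ± 0.15 SE, unadjusted p = 0.0410 and adjusted p = 0.994 by limma). Between the sexes the bright probe gave 0.20 ± 0.19 and the dim one -0.06 ± 0.15 (SE). Which form each probe reads is not known here. The probes of Ndufb6 gave -0.02 and 0.10 for diet and those of Ndufa5 -0.003 and 0.01, both pairs within their errors of 0. A very dim second probe of Ndufb11 gave -0.39 ± 0.21 (SE) for diet, against -0.05 ± 0.14 for the bright one.

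Within the sexes the diet differences ran in opposite directions, and no single difference passed. In males 35 of 35 members were higher on the Western diet, where 47.8% of all genes were higher and 52.2% lower, with a median of 0.20 (range 0.06 to 0.43) against -0.015 over all genes. In females 35 of 35 were lower on the Western diet, where 63.4% of all genes were lower and 36.6% higher, with a median of -0.19 (range -0.64 to -0.01) against -0.11. Of the 929 genes of similar brightness 62.3% were higher in males (median 0.061) and 61.5% lower in females (median -0.065). After quantile normalization 34 members were higher in males and 33 lower in females, while 58.7% of all genes were higher in females. Opposite signs of this kind were seen in 26.7% of all genes. By limma 0 of 35 members passed in either sex, with 0 at an unadjusted p under 0.05, and over all genes 0 passed (0%), with 277 at an unadjusted p under 0.05 in males (0.563% higher, 0.737% lower) and 1094 in females (0.582% higher, 4.55% lower). Both Western male arrays lay above both Control male arrays for 16 of 35 members, against 11.6% of all genes (13.3% lay wholly below). Both Western female arrays lay below both Control female arrays for 10 of 35, against 21.9% of all genes (9.43% lay wholly above). Ndufb8, Ndufc2 and Ndufs8 did both, against 1.07% of all genes.

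The difference between the sexes in the diet effect (females minus males) was below 0 for 35 of 35 members, where it was below 0 for 64.6% of all genes (35.4% above) and 74.0% of the 929 genes of similar brightness. Its median was -0.41 over members (range -0.78 to -0.15), -0.13 over all genes and -0.15 over the genes of similar brightness. In this test, by limma, 0 of 35 members passed (adjusted p = 1.00 for each), 0 had an unadjusted p under 0.05, and 0 of 21303 genes passed (0%), with 345 at an unadjusted p under 0.05 (0.465% higher, 1.15% lower). After quantile normalization it stayed below 0 for 35 members (median -0.30), while 54.9% of all genes were above 0. Ndufa11 had the smallest p, with 0.15 ± 0.29 in males, -0.64 ± 0.29 in females and a difference of -0.78 ± 0.41 (SE). Ndufc2, a membrane arm subunit, measured 4.36 and 4.39 on Control males, 4.89 and 4.70 on Control females, 4.54 and 4.82 on Western males and 4.66 and 4.41 on Western females. Its diet differences were 0.31 ± 0.22 in males and -0.26 ± 0.22 in females, and neither pair of groups overlapped. Ndufa10 had 0.10 ± 0.20 and -0.39 ± 0.20.

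Single arrays decided the size of these medians. Without Western male 2 the male median was 0.04, with 23 members higher, and without Western male 1 it was 0.36, with 34 higher. Without Control male 1, 29 were higher. Without Western female 2 the female median was -0.006, with 17 members higher and 18 lower, and without Western female 1 it was -0.385, with 35 lower. Within slide 1, which held 1 array of each group, 27 members were higher in males (median 0.09), and in females 17 were higher and 18 lower (median -0.001). Within slide 3, which held Control female 2 and Western female 2 and not the library labelled Control female 1, 35 members were lower in females (median -0.356). The difference between the sexes was below 0 for 35 members when any one array was left out, with medians from -0.64 (without Western female 1) to -0.215 (without Western female 2). Its median was -0.56 when Western male 1 was left out and -0.25 when Western male 2 was. Within slide 1 it was below 0 for 27 members, with a median of -0.075.

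**Figure D4:**
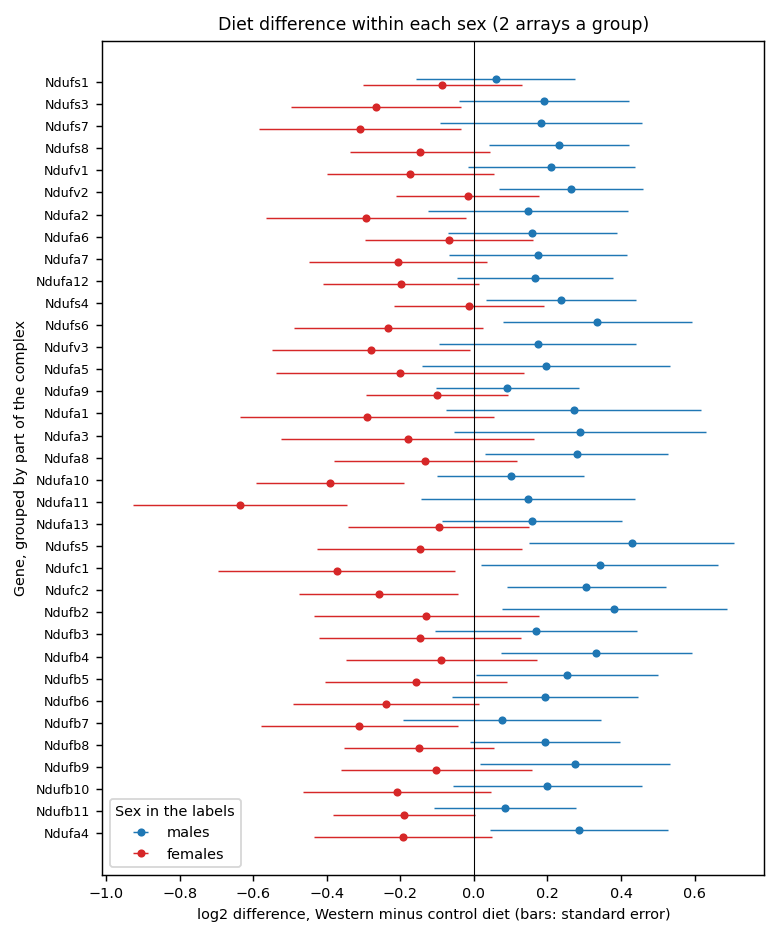
Points are the log2 difference between Western and control diet for each of the 35 genes in males (blue) and females (red), and bars are standard errors from limma. All blue points lie above 0 (0.06 to 0.43) and all red points below it (-0.64 to -0.01), while most bars reach or cross 0.

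The second comparison of the study set females against males. All 35 members were higher on the arrays labelled female, where 62.4% of all genes (37.6% lower) and 61.6% of those of similar brightness were, with a median of 0.20 (range 0.04 to 0.41) against 0.08 over all genes. By limma 0 of 35 passed (smallest adjusted p = 0.903) and 0 had an unadjusted p under 0.05. Over all genes 0 of 21303 passed (0%), and 824 had an unadjusted p under 0.05 (2.69% higher, 1.17% lower). After quantile normalization 34 members were higher in females, while 45.9% of all genes were. In 0 members did the arrays of the sexes separate, against 2.01% of all genes wholly higher and 1.02% wholly lower in females. The median was 0.32 without Western female 2 and 0.12 without Western female 1. On the Western diet alone, which leaves out both Control female arrays, 19 members were higher and 16 lower in females, where 53.5% of all genes were higher and 46.5% lower, with a median of 0.02. There, by limma, 0 of 35 passed and 0 of 21303 genes did (0%), with 285 at an unadjusted p under 0.05 (0.507% higher, 0.831% lower). The female arrays lay wholly above or below the male ones for 0 members, against 13.1% and 12.5% of all genes. Without Western male 1 the count was 4 higher and 31 lower, and without Western female 2 it was 31 higher and 4 lower. Within slide 1 the sex median was 0.45, and 0.38 on the Western diet, where it compared 1 array with 1.

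Ndufa4 had the smallest p between the sexes. It measured 5.34 and 5.04 on Control males, 5.94 and 5.73 on Control females, 5.43 and 5.52 on Western males and 5.86 and 5.43 on Western females, a 1.33-fold difference (log2 0.41 ± 0.17 SE, adjusted p = 0.903 by limma, n = 4 arrays per sex). The highest value was on the library labelled Control female 1, which carried Y-linked transcripts, and on the Western diet the sexes overlapped. Ndufb4, a distal membrane arm subunit, measured 5.67 and 5.71 on Control males, 6.36 and 6.20 on Control females, 5.79 and 6.25 on Western males and 6.41 and 5.98 on Western females, a 1.30-fold difference (log2 0.38 ± 0.18 SE, adjusted p = 0.903 by limma). Its dimmer probe gave 0.32 ± 0.18. Ndufb8, a distal subunit often used as a protein marker of assembled complex I, measured 5.68 and 5.81 on Control males, 6.23 and 6.19 on Control females, 5.82 and 6.06 on Western males and 6.17 and 5.95 on Western females (log2 0.29 ± 0.14 SE, adjusted p = 0.903 by limma). The X-linked members Ndufa1 and Ndufb11 differed by 0.18 ± 0.24 and 0.19 ± 0.14 (SE), within the range of the autosomal ones.

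Genes around complex I were taken from lists and gave no calls in any of these comparisons. Ndufab1, the mitochondrial acyl carrier protein, had the array pattern of the members, at 1.64 and 1.36 on Control males, 2.15 and 2.16 on Control females, 1.66 and 2.21 on Western males and 2.11 and 1.67 on Western females. Among the assembly factors 8 of 16 were higher and 8 lower on the Western diet, with Ndufaf3 at 0.19 ± 0.15 and Ndufaf7 at -0.16 ± 0.15 (SE). In complexes II to IV 9 of 24 were higher (Cox6c 0.15 ± 0.20, Cyc1 -0.22 ± 0.19 SE), and in ATP synthase 7 of 15 (Atp5g3 0.24 ± 0.19, Atp5c1 -0.14 ± 0.16 SE). The diet differences of complexes II to IV had a median of 0.21 in males and -0.21 in females, and those of ATP synthase 0.18 and -0.14.

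Of the 14 biogenesis regulators 9 were higher on the Western diet. Ppargc1a, a transcriptional coactivator that drives mitochondrial gene expression, measured 2.15 and 1.06 on Control males, 1.27 and 1.60 on Control females, 1.60 and 0.13 on Western males and 0.46 and 0.17 on Western females. It was 1.90-fold lower on the Western diet without passing (log2 -0.93 ± 0.40 SE, adjusted p = 0.994 by limma), and Western male 1 overlapped the control arrays. Yy1 differed by 0.24 ± 0.14 (SE). Esrrg, an oestrogen-related receptor of oxidative tissues, was a very dim probe that was well above background on 4 female but only 2 of 4 male arrays, at -5.82 to -5.38 on male and -5.09 to -3.99 on female arrays (unadjusted p = 0.00508 and adjusted p = 0.903 by limma for sex), so its values on Control male 2 and Western male 2 are bounds.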

How the data were processed

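Per the file headers, the scanner files come from Agilent design 026655 and were read with version 10.7.3.1 of the maker's software. The deposited processed signal is a linear intensity with background already subtracted, per the file headers, and no normalization between arrays is recorded. Control spots (1377) and outlier spots (94 to 216 per array) were left out, repeated probes (399) were averaged, and log2 signals were scaled by subtracting that of each array's own 75th percentile (488 to 907). Accessions were named through RefSeq (GRCm38.p6); 26412 of 39429 probes received a symbol. A probe entered when 2 or more arrays had it well above background, and the probe with the highest mean stood for a gene.

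A mean for each of 4 groups was estimated with limma 3.58.1 (R 4.3.3) over all 8 arrays (4 residual and 2.01 prior degrees of freedom), with Benjamini-Hochberg adjustment over 21303 genes and a threshold of 0.05. The fit was tested on simulated data. The number of arrays limits precision. Slide 1 held the first array of all groups, slide 2 Western male 2, and slide 3 the rest, scanned on another day. Alternatives covered background correction (normexp with offset 50, on median spot signals in place of the planned mean signals, with which it could not be run), scaling, quantile normalization, filters, probe choice, blocks and single arrays. The set of genes of similar brightness and the fit without both Control female arrays were chosen after seeing the data. Members, lists and tests were chosen with earlier results of these data known. Values in every array are given for the 3 members with the smallest p in each direction for diet, sex and their interaction, and for the Ndufv3 probes; Ndufs1, Ndufa3, Ndufa1, Ndufb11 and the other values per array of list genes were chosen after values were seen.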

Additional observations from a re-analysis of the deposited data

Results flagged for a closer look

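Y-linked transcripts, which the comparisons of complex I do not use, were well above background on 1 array labelled female. On the library labelled Control female 1, Ddx3y measured -0.46, Eif2s3y 1.90 and Uty -2.71 in log2 relative to the array's 75th percentile. On the other 3 female arrays none of these 3 genes was well above background.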

How the results depend on the processing

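Precision was limited by 2 arrays per group. The members' medians moved by less than 0.168 under the background, scaling, quantile, filter, probe and block alternatives. This limit is the pooled SD, within groups, of the members' median per array. It is loose, being close to or above the size of most of the medians. The male median of 0.043 without Western male 2, against 0.196 with all arrays, also lay within it. Medians that moved by more did so when single arrays or slides decided the value. Within slide 1 the medians were -0.001 for diet in females, -0.075 for the difference between the sexes, 0.449 for sex and 0.376 for sex on the Western diet. Within slide 3 diet in females had -0.356, with 35 members lower. Leaving out single arrays gave ranges of -0.065 to 0.103 for diet, 0.043 to 0.357 in males, -0.385 to -0.006 in females, -0.64 to -0.215 for their difference, 0.118 to 0.317 for sex and -0.143 to 0.224 for sex on the Western diet. Genes called, 0 with all arrays in each comparison, ranged from 0 to 376 for diet in females (376 without the library labelled Control female 1 and 2 without Control female 2, where the array left is assumed to vary like the others), 0 to 2 for the difference, 0 to 3 for sex and 0 to 2 for sex on the Western diet, and 2 for the last without both Control female arrays; 0 members were called under any alternative that allowed a test. Ndufb7 for diet turned to 0.009 without Western female 2 and 0.033 within slide 1, and Ndufs5 to -0.016 without Western female 1; leaving out single arrays gave -0.243 to 0.009 for Ndufb7 -0.016 to 0.298 for Ndufs5, -0.393 to -0.095 for Ndufa11, -0.205 to -0.086 for Ndufa10, 0.051 to 0.173 for Ndufs4 and 0.078 to 0.168 for Ndufv2, and -1.083 to -0.487 for Ndufa11 in the difference between the sexes. Quantile normalization kept 34 members higher in males, 33 lower in females and 34 higher for sex, while the share of all genes higher for diet went from 39.8% to 58.6%. With the replicate number as a block 0 genes were called in each comparison. Every group held 1 array of each number, so this block could not change the members' medians. Deviations of arrays with the same number correlated at -0.118 to 0.351 over genes. This check cannot decide whether the numbers pair the arrays, because the 2 deviations in a group mirror each other and all first arrays shared slide 1.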
